A study of Mus musculus with 2 samples.

Results

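This account concerns 42 genes of B cell identity and B cell receptor signalling in a study of mouse peritoneal macrophages. The genes were taken as a named set from 18193 genes that had a probe set of their own on an Affymetrix 3' expression array, and all 42 had at least 1 such probe set (90 in all). The elicited array held RNA from C57BL/6J mice aged 8 weeks, which received 1 mL of 3% thioglycollate into the peritoneal cavity, a sterile irritant broth that attracts leukocytes, and whose cavity cells were taken 3 days later. The resident array held RNA from untreated C57BL/6J mice of the same age. Per the labels' protocols, both cell preparations adhered to a dish for 2 h and were washed to remove unattached cells, while the series description gives an overnight culture, and which time applies is unclear. No sorting step is given in the sources used here, nor the number of mice behind each array. Each group was thus 1 array, so values have no replicate error and differences could not be set against the spread between mice or cultures.

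B cells recognise antigen through a membrane immunoglobulin, usually IgM or IgD in the naive state, which is held in a complex with the signalling chains Cd79a and Cd79b. Src family kinases and Syk phosphorylate these chains, the adaptor Blnk then assembles Btk and phospholipase C gamma, and inhibitory receptors such as Cd22 and Cd72 damp the signal. The untreated mouse peritoneal cavity holds many B cells beside its macrophages, including the innate-like B-1 cells. Several genes of this set are not restricted to B cells. By general knowledge, 17 were placed as B-restricted among blood cells, 9 as also known from macrophages and 16 as also known from other cells such as T cells, dendritic cells and stroma.

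Signals are linear intensities scaled by the authors to a common level. A background floor of 82.2 was set from olfactory, vomeronasal and taste receptor and keratin-associated genes, which macrophages are not thought to express. A gene counted as measured when its brightest probe set exceeded the floor on at least 1 array, and a ratio against a signal at or below the floor is a bound, written as at least N-fold. A gene is called lower or higher here when its elicited signal, after flooring, is at least 2-fold below or above its resident signal. As the only spread available, probe sets of the same gene differed by an SD of 0.48 on the log2 scale (1.40-fold, over 4465 genes), which covers probe differences and not animals. Signals passed the floor at 46.1% of probe sets on the elicited and at 51.9% on the resident array. Macrophage markers were above the floor on both arrays in 8 of 8 genes, with a summed signal of 137236 on the elicited and 141135 on the resident array. Single markers went both ways, with Itgam 2.99-fold and Cd14 2.73-fold lower, Fcgr1 2.55-fold higher and the other 5 within 2-fold.

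The B cell genes were detected throughout on the resident array, and most of them were lower on the elicited array. Of the 42 genes, 25 had an elicited signal over the floor, and all 42 had a resident signal over it. The other 17 passed it on the resident array alone, so they could only come out lower. Over all 18193 genes, 10568 passed the floor on the elicited and 10751 on the resident array, so the elicited share of the members was near that of all genes. The members were chosen with earlier results of these data known. In all, 28 members were called lower on the elicited array, against a background of 11.8% of the 11499 measured genes. A further 2 members, Blnk and Cnr2, were called higher, against a background of 8.04%, and 12 were not called. In 15 members the difference reached 8-fold downward, where the background was 0.904%. The median log2 ratio of elicited over resident signal was -2.06 over the members and -0.03 over all measured genes. In bulk RNA of unsorted cells, fewer cells of a type and less RNA per cell cannot be told apart, and the cells that each signal came from were not measured.

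**Figure D1:**
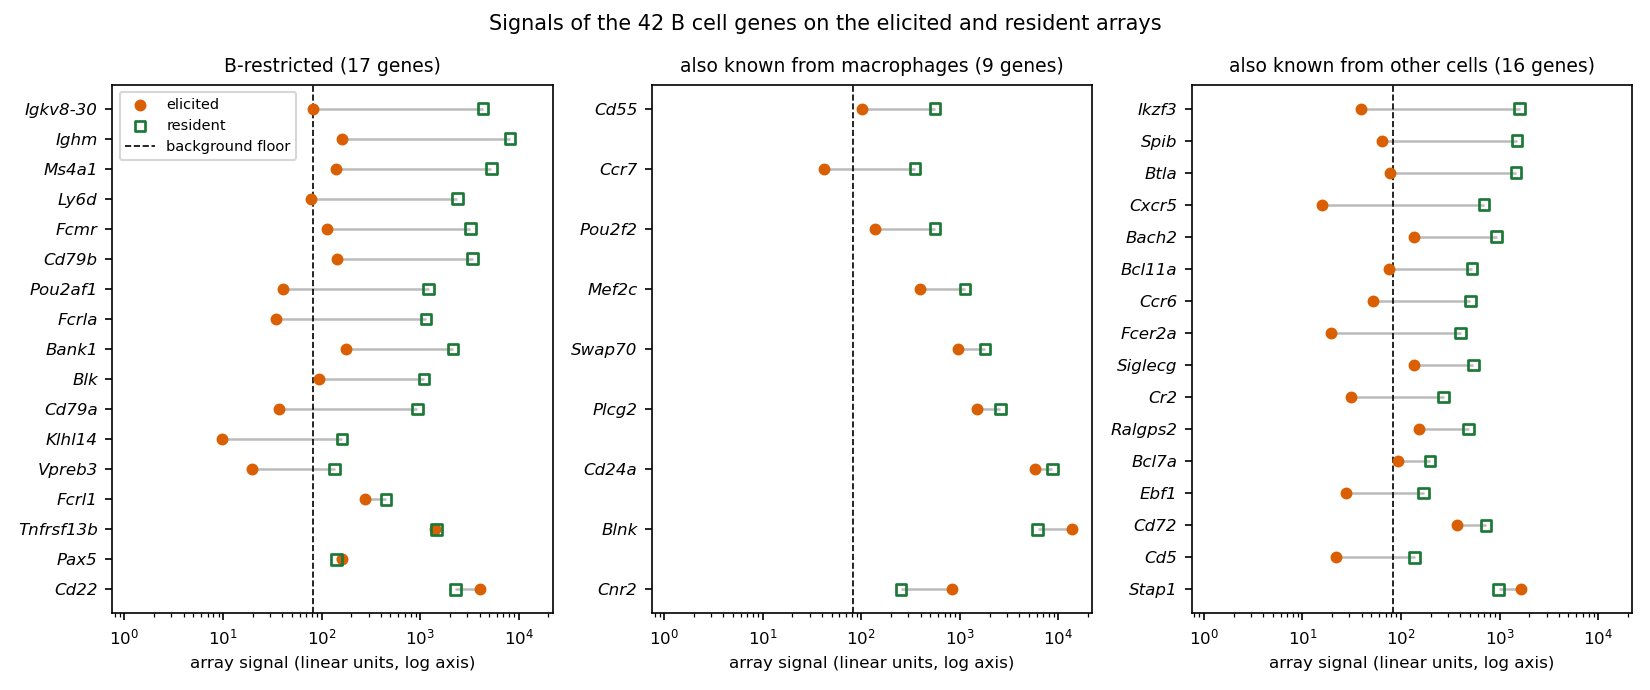
Signal of each of the 42 genes on the elicited array (orange circles) and the resident array (green open squares) on a log axis, in 3 panels by class, with the lowest ratio of elicited over resident at the top of each panel and the background floor of 82.2 as a dashed line. After flooring, 11 of 17 genes in the B-restricted panel are more than 8-fold apart. Points are drawn without flooring, so genes at background on the elicited array, such as Klhl14 (9.83 and 161), appear further apart than their bounds. Cd22, Blnk, Cnr2, Stap1 and Pax5 have the elicited point to the right of the resident one.

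Promoter sequences of 5 members carried a motif tied to transcription factors of this set. The octamer (ATGCAAAT, or ATTTGCAT on the other strand) is the DNA element bound by Pou2f2 with its B cell coactivator Pou2af1, and a palindrome of the form TCCCNNGGGA resembles the site read by Ebf1. Promoter sequences of RefSeq on GRCm38.p6, from 250 bases before to 50 bases after each start, were matched for 29 of the 42 members (38 promoters). The octamer was present on either strand in 4 of these promoters (10.5%), against 1.74% of all 32851 promoters in the table. The Ebf1-like palindrome was present in 1 (2.63%), against 0.904% of all promoters. A match describes the letters in this window and says nothing of binding. The sequences are shown because they belong to members that differed in opposite directions, with the motif in capitals and the rest in lower case. The Cnr2 promoter lies at chr4:135894939-135895238 on the plus strand of GRCm38.p6, and its octamer begins 48 bases upstream of the start.
Cnr2: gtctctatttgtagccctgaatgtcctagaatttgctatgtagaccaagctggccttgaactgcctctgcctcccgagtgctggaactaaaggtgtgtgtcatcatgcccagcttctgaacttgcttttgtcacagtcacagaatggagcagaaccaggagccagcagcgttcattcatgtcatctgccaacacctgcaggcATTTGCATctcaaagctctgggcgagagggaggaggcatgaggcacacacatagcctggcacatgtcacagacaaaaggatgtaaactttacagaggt
The Blnk promoter lies at chr19:40994172-40994471 on the minus strand, with the octamer beginning 130 bases upstream.
Blnk: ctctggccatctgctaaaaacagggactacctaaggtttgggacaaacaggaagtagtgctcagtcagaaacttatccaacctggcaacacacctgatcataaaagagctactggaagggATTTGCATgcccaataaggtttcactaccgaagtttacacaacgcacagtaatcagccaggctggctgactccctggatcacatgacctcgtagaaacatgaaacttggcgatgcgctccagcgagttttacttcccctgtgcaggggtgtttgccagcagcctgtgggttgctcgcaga
The Ccr6 promoter lies at chr17:8235793-8236092 on the plus strand, with the octamer beginning 68 bases upstream.
Ccr6: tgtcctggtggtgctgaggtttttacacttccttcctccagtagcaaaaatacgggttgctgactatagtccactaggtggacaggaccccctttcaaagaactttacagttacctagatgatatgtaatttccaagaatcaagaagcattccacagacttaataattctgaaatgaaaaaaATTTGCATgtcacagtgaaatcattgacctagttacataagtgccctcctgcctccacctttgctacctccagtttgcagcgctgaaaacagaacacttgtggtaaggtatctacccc
The Vpreb3 promoter lies at chr10:75948050-75948349 on the plus strand, with the octamer beginning 45 bases upstream.
Vpreb3: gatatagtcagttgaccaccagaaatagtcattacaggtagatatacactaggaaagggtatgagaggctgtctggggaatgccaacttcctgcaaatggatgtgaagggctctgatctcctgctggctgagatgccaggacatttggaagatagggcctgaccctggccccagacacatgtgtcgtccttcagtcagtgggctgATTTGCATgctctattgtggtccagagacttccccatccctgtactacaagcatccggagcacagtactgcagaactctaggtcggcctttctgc
The Cd22 promoter lies at chr7:30878979-30879278 on the minus strand, with the palindrome beginning 49 bases upstream.
Cd22: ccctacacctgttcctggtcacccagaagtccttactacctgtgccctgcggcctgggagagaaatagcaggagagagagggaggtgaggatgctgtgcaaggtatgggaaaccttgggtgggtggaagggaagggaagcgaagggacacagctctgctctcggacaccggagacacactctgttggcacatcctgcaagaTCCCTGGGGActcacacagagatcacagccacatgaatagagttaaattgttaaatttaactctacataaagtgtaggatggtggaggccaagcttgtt
Of these 5 genes, Cnr2 and Blnk were called higher on the elicited array, Cd22 was higher by less than 2-fold, Ccr6 was called lower, and Vpreb3 was lower with a bound under 2-fold.

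The chains of the antigen receptor were among the lowest ratios on the array. Ighm, the heavy chain of IgM, had a signal of 161 on the elicited and 8119 on the resident array, 50.5-fold lower. Igkv8-30, a kappa light chain variable gene, had signals of 82.5 and 4326 on the elicited and resident arrays, 52.4-fold lower, with the elicited signal at the edge of the floor. Counted from the lowest ratio, they stood in positions 5 and 4 of all measured genes. Cd79b, the beta signalling chain of the receptor, had a signal of 143 on the elicited and 3417 on the resident array, 23.9-fold lower. Its partner chain Cd79a was at background on the elicited array (37.0, against 934 on the resident array) and at least 11.4-fold lower. Vpreb3, a protein that binds newly made light chains in the endoplasmic reticulum, was dim on the resident array (135.5) and at background on the elicited array (19.6), so its bound of at least 1.65-fold says little.

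Immunoglobulin signals other than these pointed the same way. Of 18 immunoglobulin genes with a probe set of their own, a list drawn up after the values were seen and including Ighm and Igkv8-30, 13 were above the floor on an array, and the elicited signal was the lower in all 13. Of these, 9 were called lower and none higher. Ighv14-2 had signals of 5.76 and 1354 on the elicited and resident arrays, and Iglv1 had 47.3 and 1330. A further 3 probe sets, each listing 5 kappa light chain genes, read 333, 406 and 622 on the elicited array, against 10995, 11943 and 13316 on the resident array, which is 21.4-fold to 33.0-fold lower. Some variable gene segments closely resemble one another and their probe sets can hybridise to several of them, so the identity of each segment is uncertain.

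The 11 probe sets of Ighm gave unequal ratios. Of these, 7 were below the floor on both arrays. The other 4 had log2 ratios of -5.66, -3.61, -1.85 (a bound) and -0.29. The smallest of them was from a probe set with signals of 230 and 281 on the elicited and resident arrays. All 4 were lower on the elicited array, but the size of the difference depended on the probe set read.

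**Figure D2:**
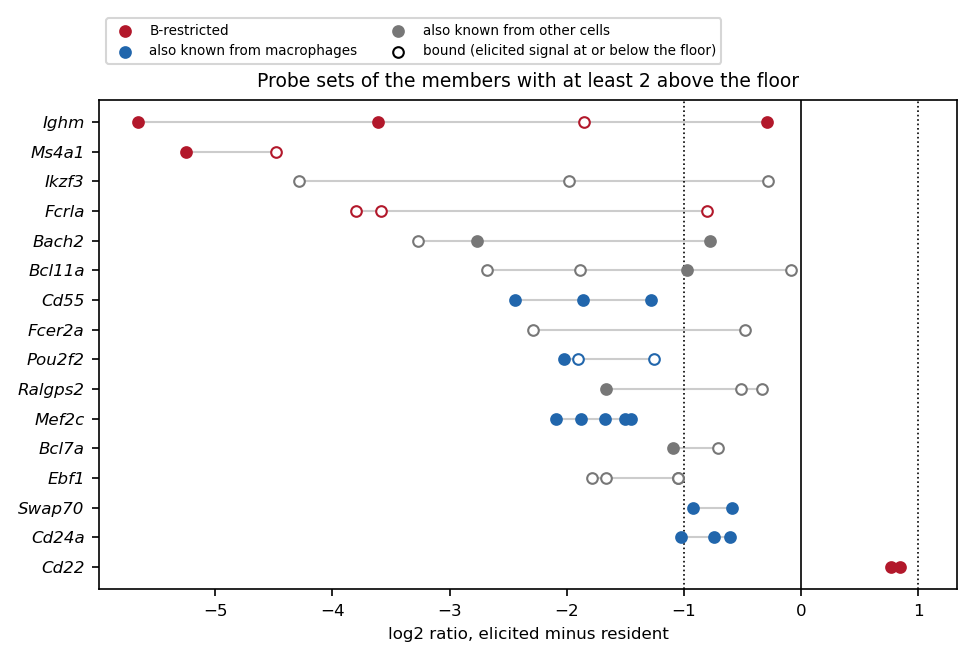
Log2 ratio of elicited over resident signal for each probe set above the floor, for the 16 members with at least 2 of them, with open symbols for bounds, colours for the class and dotted lines at 2-fold. In all 16 genes the probe sets lie on 1 side of 0, with Cd22 the gene on the higher side and Ighm the widest, from -5.66 to -0.29. Open symbols are probe sets at background on the elicited array, which could only lie below 0, so part of this agreement was set in advance.

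Most surface molecules that tune the receptor were lower on the elicited array. Of 11 such genes, 7 were called lower on the elicited array, none was called higher and 4 were not called. Ms4a1, the tetraspanning protein CD20, had a signal of 139 on the elicited and 5281 on the resident array, 38.0-fold lower, and its second probe set was at least 22.3-fold lower. Fcmr, the receptor for the Fc part of IgM, had signals of 115 and 3227 on the elicited and resident arrays, 28.1-fold lower. Both are B-restricted and ranked within the 23 lowest ratios of all measured genes. Btla, an inhibitory receptor that T cells also carry, was at background on the elicited array (77.5, against 1474 on the resident array) and at least 17.9-fold lower. Fcrla, an intracellular Fc receptor-like protein of B cells, had signals of 34.1 and 1143 on the elicited and resident arrays, at least 13.9-fold lower. Its other probe sets above the floor had bounds of -3.59 and -0.80 on the log2 scale. Siglecg, an inhibitory sialic acid receptor prominent on B-1 cells, was 4.01-fold lower (136 and 544). Cr2, the complement receptor CD21, and Fcer2a, the IgE receptor CD23, both marks of mature conventional B cells, were at background on the elicited array and at least 3.30-fold and 4.89-fold lower. Cr2 was within 2-fold with the floor at the 99th percentile (-0.64), and the second probe set of Fcer2a had a bound of -0.48 on the log2 scale.

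Cd22, Cd72, Fcrl1 and Cd5 were not called. Cd22, an inhibitory sialic acid receptor, had a signal of 4078 on the elicited and 2269 on the resident array, 1.80-fold higher. Its second probe set had signals of 914 and 537 on the elicited and resident arrays, so both pointed up (log2 ratios of 0.85 and 0.77), and the direction held under all scalings tried (0.55 to 1.15). Cd72, an inhibitory lectin-like receptor, had signals of 371 and 727 on the elicited and resident arrays, and its log2 ratio of -0.97 fell just inside the threshold. It passed the threshold, at -1.27, when the arrays were scaled on spiked hybridisation controls, and lay further inside it with equal medians (-0.66), quantile (-0.64) and loess (-0.69) scaling. Fcrl1, an activating Fc receptor-like protein of B cells, was 1.62-fold lower (277 and 450). Cd5, a glycoprotein of T cells and B-1 cells, was dim on the resident array (137) and at background on the elicited array (21.8), so its bound of at least 1.67-fold lower does not show a retained signal.

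Intracellular signalling genes were mixed. Of 7 genes, 3 were called lower, 1 was called higher and 3 were not called, and all 7 exceeded the floor on both arrays (median log2 ratio -0.92). The B-restricted members were low on the elicited array. Blk, the Src family kinase of B cells, had a signal of 94.0 on the elicited and 1093 on the resident array, 11.6-fold lower. Bank1, a scaffold that links the receptor to its kinases, was 12.0-fold lower (179 and 2153).

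The adaptor Blnk went the other way, with a signal of 13826 on the elicited and 6161 on the resident array, 2.24-fold higher. Blnk is also known from macrophages. Its log2 ratio of 1.17 stayed above 0 under every scaling tried but was under 2-fold with quantile (0.81), loess (0.82) and hybridisation control (0.87) scaling. Plcg2, the phospholipase that Blnk recruits and that macrophages share, had signals of 1482 and 2579 on the elicited and resident arrays, 1.74-fold lower. Stap1, an adaptor that binds Tec family kinases, was 1.67-fold higher (1632 and 977). Swap70, a Rac-binding protein of B cells, mast cells and macrophages, was 1.89-fold lower (951 and 1797). With hybridisation control scaling Plcg2 (-1.10) and Swap70 (-1.22) passed the threshold. Ralgps2, an exchange factor for Ral, was 3.17-fold lower by its brightest probe set (153 and 485), while its other probe sets above the floor had bounds of -0.51 and -0.33 on the log2 scale.

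Transcription factors of the B lineage were called lower in 9 of 10 cases (median log2 ratio -2.35). Ikzf3 (Aiolos), which lymphocytes of several kinds carry, had signals of 39.6 and 1602 on the elicited and resident arrays, at least 19.5-fold lower by its brightest probe set, while its other probe sets above the floor had bounds of -1.98 and -0.28 on the log2 scale. Spib, an Ets family factor of B cells and plasmacytoid dendritic cells, was at least 18.3-fold lower (63.5 and 1505). Pou2af1, the coactivator that works with octamer-binding factors, was at least 14.8-fold lower (41.0 and 1216). These 3 were bright on the resident array and at background on the elicited array.

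The remaining factors called lower had smaller differences. Bach2, a repressor that holds back plasma cell formation, was 6.81-fold lower (137 and 933), while its probe sets above the floor spanned log2 ratios from -3.27 to -0.78. Bcl11a, a zinc finger factor of early lymphoid cells, was at least 6.42-fold lower by its brightest probe set, and its probe sets spanned log2 ratios from -2.68 to -0.08. Pou2f2 (Oct-2), known from B cells and macrophages, had signals of 138 and 560 on the elicited and resident arrays, 4.06-fold lower. Mef2c, a factor shared with macrophages, was 2.84-fold lower (398 and 1131), and all 5 of its probe sets lay between -2.09 and -1.45. Bcl7a, a chromatin remodelling subunit, was 2.13-fold lower (92.6 and 197), close to background on the elicited array, and within 2-fold with equal medians (-0.78), quantile (-0.55) and loess (-0.81) scaling.

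The lineage-defining factors were dim, Pax5 on both arrays and Ebf1 on the resident array. The ratio of Pax5 and the size of the Ebf1 ratio thus carry little information. Ebf1 had a signal of 27.8 on the elicited and 170 on the resident array, at least 2.06-fold lower, with 4 probe sets all lower (bounds of -1.78 to -1.05). Its ratio was within 2-fold with equal medians (-0.89) and quantile (-0.76) scaling. Ebf1 is also known from stromal cells. Markers of mesothelium and fibroblasts were called higher on the elicited array in 6 of 8 measured genes. Their list had a summed signal of 11658 on the elicited and 498 on the resident array, with Msln not above the floor on either. Of the 8 measured genes, 6 passed the floor on the elicited array alone, so they could only come out higher. The genes of this list furthest apart were Col1a2 (5452 and 166), Col3a1 (2555 and 92.3), Dcn (1945 and 68.8) and Pdgfra (755 and 45.7). The Ebf1 signal on the elicited array was at background. Pax5 had signals of 159 and 141 on the elicited and resident arrays, a log2 ratio of 0.18 that turned to -0.12 with hybridisation control scaling, and its second probe set was below the floor on both arrays.

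Receptors for homing and survival factors gave both the largest gain and the most even signal of the set. Of 5 genes, 3 were called lower, 1 was called higher and 1 was not called. The chemokine receptors were all at background on the elicited array. Cxcr5, the receptor that guides B cells to follicles, had signals of 15.9 and 697 on the elicited and resident arrays, at least 8.48-fold lower. Ccr6, which B cells share with some T and dendritic cells, was at least 6.17-fold lower (52.4 and 507), and Ccr7, which also marks activated dendritic cells and macrophages, was at least 4.26-fold lower (41.4 and 350). Tnfrsf13b (TACI), a receptor for the survival factors BAFF and APRIL, had a signal of 1422 on the elicited and 1465 on the resident array. Its log2 ratio of -0.04 turned to 0.26 with equal medians and to 0.04 with quantile scaling, so no direction can be given. Cnr2, the peripheral cannabinoid receptor of B cells and macrophages, had a signal of 825 on the elicited and 253 on the resident array, 3.27-fold higher, and was called higher under every alternative tried.

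Among the remaining surface and stage-linked genes, Ly6d stood apart. Ly6d, a surface protein that marks lymphoid progenitors turning to the B lineage, was at background on the elicited array (77.4, against 2381 on the resident array) and at least 29.0-fold lower. Cd55, the complement decay-accelerating factor found on many cells, had signals of 103 and 558 on the elicited and resident arrays, 5.43-fold lower, and its 3 probe sets ranged from -2.44 to -1.28. Cd24a, a glycoprotein of immature B cells that myeloid cells share, was bright on both arrays (5719 and 8693) and 1.52-fold lower. Klhl14, a ubiquitin ligase adaptor of B-1 cells, was dim on the resident array (161) and at background on the elicited array (9.83), with a bound of at least 1.96-fold.

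Of the 17 B-restricted genes, 11 were called lower and none higher, and the median log2 ratio was -3.59. These 11 were lower by factors from at least 11.4 (Cd79a) to 52.4 (Igkv8-30), each by its brightest probe set. After flooring, the other 6 (Klhl14, Vpreb3, Fcrl1, Tnfrsf13b, Pax5 and Cd22) were all under 2-fold apart. Klhl14 and Vpreb3 are bounds and their true ratios can be larger, so the gap within the class depends on the floor. With a pseudocount of 1 in place of the floor, their log2 ratios were -3.90 and -2.73. With that setting, or with the floor as a pseudocount, 13 of the 17 were called lower, against 15.1% and 9.44% of all measured genes. Over the 11 B-restricted members above the floor on both arrays, the SD of log2 ratios was 2.55. It was 1.45 over the 8 such genes also known from macrophages and 1.19 over the 6 known from other cells. Probe sets of 1 gene differed by an SD of 0.48. Of the 9 genes also known from macrophages, 4 were called lower (Cd55, Ccr7, Pou2f2 and Mef2c), 2 were called higher (Blnk and Cnr2) and 3 were not called, with a median of -0.92. Of the 16 genes known from other cells, 13 were called lower and none higher, with a median of -2.15. In this class 10 of the 16 were at background on the elicited array and could only come out lower. That held for 1 of the 9 genes known from macrophages and 6 of the 17 B-restricted genes. Of the 6 genes known from other cells that were above the floor on both arrays, 4 were called lower, with a median of -1.38. The classes were assigned from general knowledge with earlier results of these data in view, and no test was made between them. On the elicited array, Cd22 (4078) and Tnfrsf13b (1422) were far brighter than all other B-restricted members, which read at most 277 (Fcrl1). The placement of Cd22 and Tnfrsf13b is therefore uncertain, and which cells gave their signals was not tested.

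**Figure D3:**
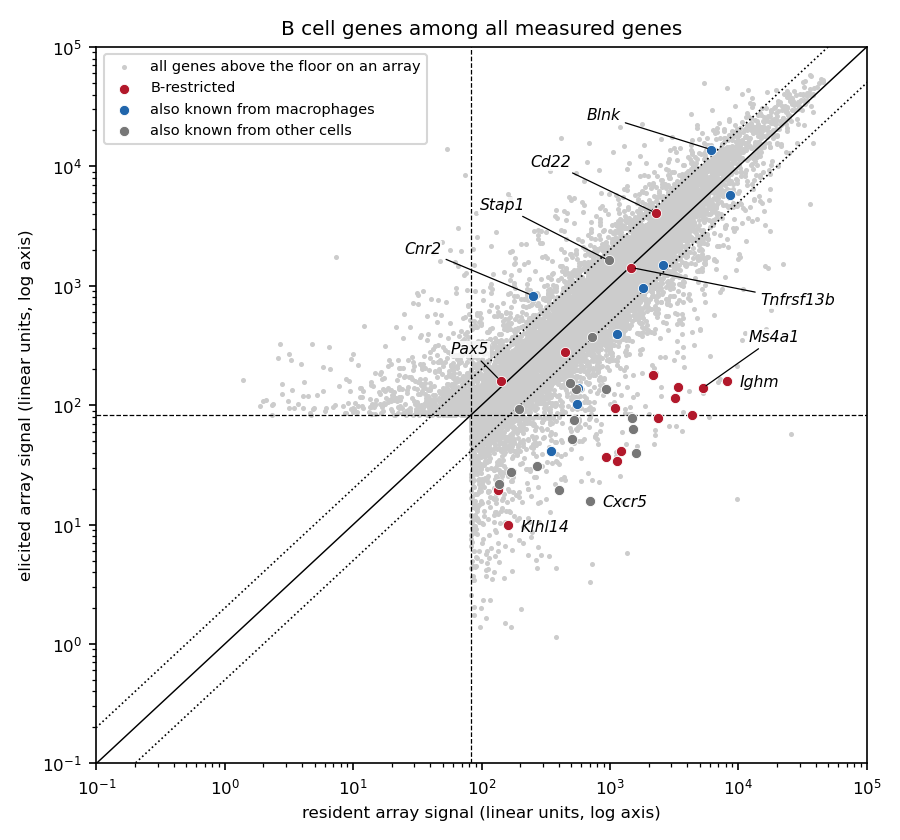
Signal on the elicited array against signal on the resident array for all 11499 measured genes (grey) and the 42 members coloured by class, on log axes, with the line of equality, dotted lines at 2-fold and dashed lines at the floor of 82.2. Most B-restricted members lie far below the line of equality at resident signals near or above 1000, while Cd22, Tnfrsf13b and Pax5 lie near it.

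The share of higher among all genes at least 2-fold apart depended on scaling, which bears on the smaller differences above. It was 40.5% as deposited, 65.9% with equal medians of probe sets above the floor, 57.9% after quantile normalization, 50.1% after loess and 21.6% when scaled to hybridisation controls. Over all genes the median log2 ratio as deposited was -0.03, and it was 0.25, 0.16, 0.07 and -0.30 under these alternatives in the same order. Under all 5 scalings, 11 of the 17 B-restricted members were called lower, against 7.35% to 18.3% of all measured genes.

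Other genes of B cell receptor signalling, most of which macrophages also use, were less lowered. Of 30 listed genes, 25 had a probe set of their own and all 25 exceeded the floor on both arrays. Among them 8 were called lower, 3 were called higher and 14 were not called (median log2 ratio -0.74). The lowest were Cd81, a tetraspanin found on many cells (1347 on the elicited and 9553 on the resident array), the adaptor Lcp2 (1408 and 5190), the Ras activator Rasgrp3 (492 and 1783) and the adaptor Dapp1 (340 and 1182). The 3 that were higher, named here after their values were seen, were the adaptors Lat2 (8469 and 2811) and Grb2 (5904 and 2889) and the ubiquitin ligase Cblb (1447 and 654).

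Further genes of the B lineage followed the B-restricted members in part. Of 35 listed genes, 21 were measured, of which 14 were called lower and 1 higher (median log2 ratio -1.37). H2-Ob, a class II peptide loading modulator of B cells, had signals of 61.5 and 2264 on the elicited and resident arrays, and its partner H2-Oa had 51.7 and 800. The transcription factor Ets1 was 17.6-fold lower (143 and 2517), and Tnfrsf13c, the receptor for BAFF, was at least 6.87-fold lower (71.5 and 564). The single higher gene was Id3, an inhibitor of E proteins (3384 and 522). Class II peptide loading genes, which B cells, dendritic cells and macrophages share, were called lower in 8 of 9 measured genes (median -1.72), led by H2-Ob, H2-Oa, H2-DMb2 (185 and 1781) and the class II transactivator Ciita (81.4 and 335).

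Genes typical of conventional B-2 cells and of peritoneal B-1 cells gave different counts. All 11 measured B-2 genes were called lower on the elicited array (median log2 ratio -2.09), led by Icosl, a costimulatory ligand (60.3 and 834), and by the members Cxcr5, Cd55 and Fcer2a. Of 12 measured B-1 genes, 4 were called lower and 1 higher (median -0.42). The lowered ones were Siglecg, Zbtb32 (30.9 and 295), the integrin gene Itgam (3027 and 9059) and Bhlhe41 (80.9 and 193), and the higher one was Sox4 (760 and 309). The lists share genes with the members and with macrophages, among them Itgam. Brightest on the B-1 list were Cd9 (31860 and 23033) and Ahnak (10226.5 and 12615.8), neither of them called. Of the 11 B-2 genes, 6 were at background on the elicited array and could only come out lower, against 3 of the 12 B-1 genes. The difference between the lists was not tested.

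Of 5 ligands of the members that were measured, 2 were called lower, 1 was called higher and 2 were not called (median log2 ratio -0.60). Cxcl13, the chemokine that binds Cxcr5, had a signal of 682 on the elicited and 24464 on the resident array, 35.9-fold lower. Tnfsf13b (BAFF), a ligand of Tnfrsf13b and Tnfrsf13c, was 4.06-fold lower (138 and 561). Sema4d, a ligand of Cd72, was 2.19-fold higher (4010 and 1832).

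**Figure D4:**
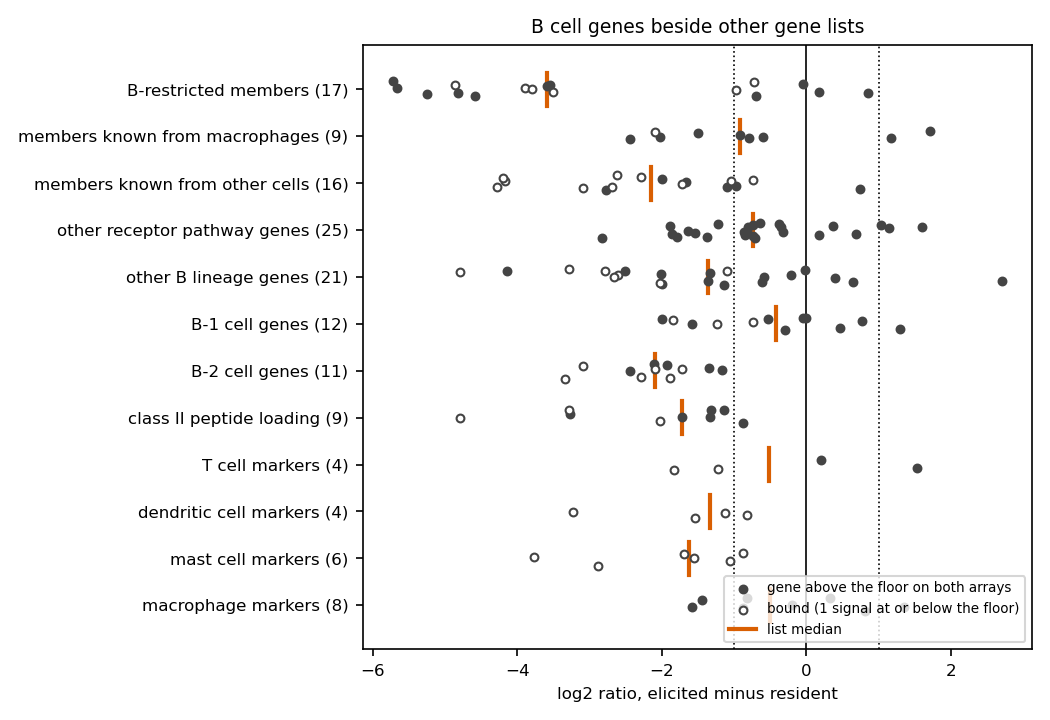
Log2 ratio of elicited over resident signal for every measured gene of the 3 member classes and of 9 other lists, with the number of measured genes after each name, open symbols for bounds and an orange bar at the list median. The B-restricted class has the lowest median (-3.59) of the 12 lists shown, and the macrophage markers have a median of -0.51.

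Markers of other cells that carry some of these genes also differed. T cell markers were above the floor in 4 of 7 genes with a probe set. Of the 4, 2 were called lower (Cd3d and Cd3g), 1 was called higher (Cd28) and 1 was not called (Cd8a). Cd3d and Cd3g were at background on the elicited array and could only come out lower. The list had a summed signal of 620 on the elicited and 825 on the resident array. Cd3e, Cd247 and Cd4 passed the floor on neither array. Conventional dendritic cell markers were measured in 4 of 7 genes, 3 of them called lower (Cd209a, Dpp4 and Kmo) and 1 not called (Zbtb46). All 4 were at background on the elicited array and could only come out lower. The list had summed signals of 331 on the elicited and 1436 on the resident array. Flt3, Xcr1 and Itgae stayed below the floor on both arrays. Of 6 plasmacytoid dendritic cell markers, 1 (Tcf4, also a B cell factor) was called lower, and Siglech had signals of 94.7 and 39.3 on the elicited and resident arrays. These values stand beside the lower signals of Btla, Spib, Ccr6, Ccr7, Ikzf3, Bcl11a and Cd5, and the part of T and dendritic cells in them was not tested. Mast cell markers were called lower in 5 of 6 measured genes (Cpa3, Cma1, Mcpt4, Kit and Tpsb2), with summed signals of 148 on the elicited and 2654 on the resident array. All 6 were at background on the elicited array, so their ratios are bounds that could only come out lower. Hdc and Ms4a2 were at background on both arrays.

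Plasma cell markers were mixed. Of 7 genes, 5 were measured, with 1 called lower (Mzb1), 1 called higher (Sdc1) and 3 not called (median log2 ratio 0.43). The summed signal was 23207.5 on the elicited and 13851.7 on the resident array. Those not called were Xbp1 (13466 and 9971), Prdm1 (561 and 784) and Derl3 (135 and 17.1, at background on the resident array). Jchain and Tnfrsf17 stayed below the floor on both arrays, Mzb1, which marginal zone and B-1 cells also express, had signals of 118 and 2482 on the elicited and resident arrays, and Sdc1, which macrophages also express, had 8870 and 543.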

How the data were processed

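RNA from cultured peritoneal macrophages was measured on 1 Affymetrix 3' array per group (elicited, resident), from 100 ng of total RNA per the labels' protocols. The deposited values are linear signal intensity, 1 per probe set (45101 per array), and the authors used MAS5 to make them, per the submitters' processing notes. For the MAS5 version, scaling target and detection calls, the sources used here give nothing. The mean after trimming 2% at each end was 500.004 on the elicited and 500.003 on the resident array, so both were scaled to a common level. No further normalization was applied for the main values.

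Genes were named from the platform annotation, and symbols were updated by gene ID through the GRCm38.p6 RefSeq table (34741 of 34945 probe sets with 1 symbol matched). Probe sets listing several genes (932) or none here (9160) were left out, except the kappa light chain probe sets described as such. The floor of 82.2 is the 95th percentile of 126 probe sets of silent gene families over both arrays. The probe set brightest on average (log2) stood for its gene. Log2 ratios are elicited minus resident of floored signals.

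With 1 array per group there was no test between groups, and the array number limits how precise any value is. Members, classes, lists and rules were chosen with earlier results of these data known. All 42 members are accounted for, and of the other gene lists up to 4 genes with the largest absolute log2 ratio are named, plus every gene at least 2-fold apart where these are 5 or fewer. Cell type markers are summarised by counts and sums, with up to 5 genes at least 2-fold apart named for each list discussed. Further names, given to spell out small counts or marker lists, were picked once their values were known. Calculations were tested on a single simulated array pair. Its changed genes were picked well above the floor, so recovery of ratios that are bounds was not tested. Alternatives changed the scaling (equal medians, quantile, loess with a span of 0.4), the floor (99th percentile, resident array alone, a pseudocount of 1, the floor as a pseudocount), the probe set and the filter on dim genes. Scaling on 9 hybridisation control probe sets was added after the data were seen. Tools were Python 3.11.15, numpy 2.4.6, pandas 2.3.3, statsmodels 0.14.6 and matplotlib 3.10.9.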

Additional observations from a re-analysis of the deposited data

How the results depend on the processing

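No paired analysis was possible because each group has 1 array. Across 12 alternatives, 18 of the 42 members were called lower under every alternative that gave a value, and no member past 2-fold turned its direction. Pax5 and Tnfrsf13b, both within 2-fold, were the 2 members whose sign differed between alternatives. The count of members called lower was 28 and fell outside 1.5 times that under the filter for genes above the floor on both arrays, where it was 14 of 25 members left (7 B-restricted, 4 of the genes known from other cells). Over all genes left by that filter, 11.1% were called lower. The filter removes, by construction, every member at background on the elicited array. It also moved the median log2 ratio to -1.51 over the members and to -1.38 over the genes known from other cells. The count of members called higher was 2 as deposited, 4 with equal medians (Cd22 and Stap1 added), and 1 with quantile, loess and hybridisation control scaling. With the probe set least lowered in each gene, the median was -0.97 over the members and -0.87 over the genes known from other cells. Of the latter, 7 were called lower with these probe sets, against 8.01% of all measured genes. Many of those probe sets are dim, and a bound cannot exceed the resident signal over the floor. The median of the genes known from other cells was -1.57 with the floor at the 99th percentile and -1.58 with the median of probe sets. With a pseudocount of 1 in place of the floor the medians were -2.77 over the members, -4.57 over the B-restricted genes and -2.77 over the genes known from other cells. With the floor as a pseudocount the B-restricted median was -3.10. The other counts stayed within 1.5 times, and the other medians within the probe-set SD of 0.48. Signal near background limits the dim members most, and 17 of the 42 ratios are bounds.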
